A study of Apocynum venetum with 18 samples.

Results

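Leaf RNA of Apocynum venetum sampled after 6 h in a saline nutrient solution was set against leaf RNA sampled at 0 h. The comparison used 6 of the 18 libraries of a time course, namely the 3 libraries labelled 6 h and the 3 labelled 0 h. Libraries were taken by their labelled time alone, and earlier results of these data were known when they were chosen. Every feature that passed a filter on low counts was tested, which was 45222 of the 53545 features in the tables.

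Apocynum venetum is a shrub of saline ground grown for its bast fibre and its medicinal leaves, and the plants were wild seedlings. Both groups, 0 h included, are labelled as treated with NaCl at 300 mmol/L in nutrient solution. The other 4 groups were sampled at 2, 12, 24 and 48 h. The design text mentions controls in solution free of NaCl, but the labels put no library in such a group. Time in salt therefore cannot be told apart from the transfer to new solution or from the hour of day. No label ties a library to a plant, so p-values measure only the spread between these libraries, which may be technical.

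When roots meet a saline solution, water becomes harder to take up first, and sodium and chloride build up in the leaf later. Leaf cells answer the loss of water by making abscisic acid, a hormone that closes stomata and switches on stress genes. Genes of this kind commonly encode transcription factors, enzymes that make compatible solutes, protective proteins of drying seeds, and ion pumps and carriers. Which of the features described here belong to those classes is not known from the values used here. Features are transcripts assembled without a genome, and they are described by level, length, state and the form of their IDs.

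Total estimated counts were 21120787 to 22748646 per library at 6 h and 17933939 to 22432087 at 0 h. The library labelled 0 h replicate 2 stood apart from its group. Across features, its log2 CPM (counts scaled to library size, with TMM factors) correlated at 0.890 on average with the other 0 h libraries. Its mean correlation with 2 h replicates 1 and 3 was 0.923, and the other 0 h libraries correlated with each other at 0.945. The library labelled 2 h replicate 2 correlated at 0.915 on average with the 0 h libraries and at 0.897 with the other 2 h libraries. Whether the labels of these libraries were exchanged was not tested, so the calls, the called lists and the named features are also given without 0 h replicate 2. Among the 3 pairs of 6 h libraries the correlation was 0.899 to 0.946, and between a 6 h and a 0 h library it was 0.835 to 0.903. Of the 6 h libraries, replicate 1 was the least like its group. Its mean correlation with the other 6 h libraries was 0.908, against 0.922 for replicate 2 and 0.932 for replicate 3.

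At 6 h most features called changed were higher than at 0 h. To be called, a feature needed a log2 change of 1 or more in either direction and, in edgeR's quasi-likelihood test, a p under 0.05 after Benjamini-Hochberg adjustment. This held for 2894 features, 6.40% of those tested. Among them, 2112 were higher at 6 h (4.67% of features tested) and 782 were lower (1.73%). Without 0 h replicate 2 the counts were 2835 higher and 1373 lower, which took in 1677 of the 2112 rises and 648 of the 782 falls. The counts were 910 and 294 when 0 h replicate 3 was left out, and 1193 and 466 for 0 h replicate 1. The 6 h replicates weighed on the falls, which numbered 388 when replicate 1 was left out, 391 for replicate 2 and 397 for replicate 3. The rises then numbered 1715, 1548 and 1520. With only the 6 libraries compared in the fit, 267 were higher and 107 lower, which took in 266 of the 2112 rises and 103 of the 782 falls. The DESeq2 test called 3383 higher and 1935 lower, so that rises were 63.6% of its calls against 73.0% in edgeR. On log2(FPKM + 1), limma called 1790 higher and 1083 lower.

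TMM scaling centres the bulk of features near 0, so a shift of the whole population could not be seen. After scaling, the median log2 change over all 45222 features was 0.02, the middle 50% lay between -0.55 and 0.67, and 50.7% of features were above 0. Among the rises the median log2 change was 2.22, or 2.20 with the 209 features that had no count at 0 h set to a floor of 3 counts over the group. Among the falls it was -1.99, or -1.98 with the 18 features that had no count at 6 h set to that floor. With these floors, 902 rises stayed under a log2 change of 2 and 92 reached 5 or more. Of the falls, 396 stayed above -2 and 60 reached -5 or less. A further 11760 features had values that differed by 1 or more on the log2 scale without passing the adjusted p, and 553 passed it with a smaller change. Called or not, 8058 features (17.8% of those tested) had a log2 change of 1 or more, and 6596 (14.6%) had one of -1 or less. Changes of this size were thus nearer to balance between the directions than the calls were.

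**Figure D1:**
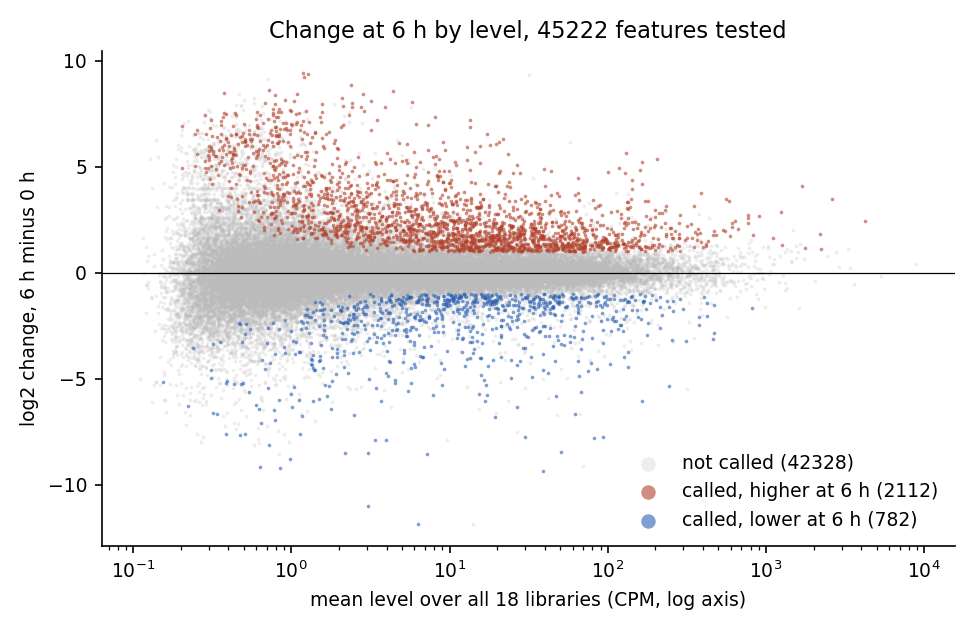
Each point is 1 of 45222 features, with its mean level over all 18 libraries on the x axis (CPM, log scale) and the fitted log2 change, 6 h minus 0 h, on the y axis. The 2112 rises (red) and 782 falls (blue) lie on both sides of a cloud whose median is 0.02, and the largest fitted changes stand at low levels.

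In nearly all called features the libraries of the 2 groups did not overlap. All 6 h libraries were above all 0 h libraries in 2009 of the 2112 rises (95.1%), beside 14.2% of all features tested. All 6 h libraries were below all 0 h libraries in 713 of the 782 falls (91.2%), beside 12.1% of all features tested. The calls were made on the same values, so this describes them and adds no evidence. Leaving out 0 h replicate 2, these shares were 96.9% of the rises beside 22.7%, and 99.5% of the falls beside 21.5%. Within the 0 h group, replicate 2 was most often the library nearest to 6 h. It was the highest 0 h library in 46.5% of rises and the lowest in 59.1% of falls. Over all features tested it was the highest in 41.9% and the lowest in 35.0%. The spread between replicates was alike in the groups, with a median SD of log2 CPM of 0.50 at 6 h and 0.53 at 0 h.

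The called features held a sizeable part of the leaf's measured RNA. The rises held 13.3%, 10.7% and 10.4% of all counts in the 6 h libraries, against 3.20%, 4.05% and 2.64% in the 0 h libraries. The falls held 1.12%, 1.33% and 1.34% of counts in the 6 h libraries, against 4.91%, 3.75% and 6.57% in the 0 h libraries. In both lists 0 h replicate 2 was the 0 h library closest to the 6 h values. Without it the 0 h mean was 2.92% for the rises and 5.74% for the falls, against 3.30% and 5.08% with it. Few features carried much of this. Of the counts in the rises at 6 h, the 10 most abundant features held 17.3% and 105 features held 50%. Of the counts in the falls at 0 h, 10 features held 15.2% and 72 features held 50%. In every library of the group where they were higher, 150 rises stood at 100 CPM or more and 7 at 1000 CPM or more, while 55 falls stood at 100 CPM or more and none at 1000 CPM. These shares use the values that chose the features and carry no test.

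Only 2 rises and 2 falls are named, since no gene names were used. In each direction these are the feature with the largest log2 change and that with the largest difference in mean CPM. Candidates were calls without overlap between groups whose higher group stood at 10 CPM or more throughout, which left 951 rises and 388 falls. Between genes of different length, levels are comparable only as FPKM (fragments scaled to feature length and library size), so those values are also given.

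TRINITY_DN24795_c0_g1_i1_4, a feature of 976 nucleotides, had the largest log2 rise. It stood at 36.7, 68.7 and 51.2 CPM in the 6 h libraries, against 0.531, 0.294 and 1.08 CPM in the 0 h libraries. The lowest 6 h library was far above the highest 0 h library, with 912 to 1561 counts in the 6 h group and 6 to 27 counts in the 0 h group. Its mean was 52.2 CPM ± 16.0 at 6 h and 0.636 ± 0.405 at 0 h (SD, n = 3 each). The log2 change was 6.33 (SE 0.62, adjusted p = 5.1e-05 in edgeR), with the direction shown by all 3 libraries. It was called under each of the 17 alternatives fitted to it, with log2 changes from 5.18 to 6.95 and adjusted p from 9.5e-27 to 0.018. Its mean was 5.95 CPM ± 2.20 after 2 h and 53.8 ± 7.02 after 12 h, then 7.01 ± 3.97 after 24 h and 11.7 ± 5.50 after 48 h. The level at 12 h was thus within the spread of the 6 h level, and both later times were lower than every 6 h library. In FPKM it stood at 47.7, 86.5 and 64.2 at 6 h, against 0.729, 0.396 and 1.40 at 0 h.

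TRINITY_DN14901_c0_g1_i2_1, of 2089 nucleotides, gained the most CPM. It stood at 3022, 2245 and 2913 CPM in the 6 h libraries, against 48.1, 418 and 16.6 CPM in the 0 h libraries. The 6 h libraries lay close together, while 0 h replicate 2 was well above the other 0 h libraries. Its mean was 2727 CPM ± 421 at 6 h and 161 ± 223 at 0 h (SD, n = 3 each), and it took 0.297% of all counts at 6 h, against 0.0165% at 0 h. The log2 change was 4.08 (SE 0.99, adjusted p = 0.021 in edgeR), and it was 6.41 without 0 h replicate 2 (adjusted p = 0.00092). The call was lost without 0 h replicate 1 (adjusted p = 0.077), without 0 h replicate 3 (adjusted p = 0.059) and with only the 6 libraries compared (adjusted p = 0.13). Over its 16 alternatives the log2 change ran from 3.55 to 6.41 and the adjusted p from 5.0e-05 to 0.13. At 2 h replicates 1, 2 and 3 stood at 555, 132 and 779 CPM, so that 0 h replicate 2 was above 2 h replicate 2. The mean was 4363 CPM ± 1472 after 12 h, 1648 ± 912 after 24 h and 686 ± 375 after 48 h. In FPKM it stood at 1832, 1321 and 1705 at 6 h, against 30.8, 265 and 10.2 at 0 h.

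TRINITY_DN15911_c0_g1_i1_1, of 2327 nucleotides, had the largest log2 fall. It stood at 2.38, 0.924 and 2.87 CPM in the 6 h libraries, against 198, 31.3 and 408 CPM in the 0 h libraries. All 6 h libraries were low, on 21 to 70 counts, while the 0 h libraries spread widely, with 0 h replicate 2 the lowest of them. Its mean was 2.06 CPM ± 1.01 at 6 h and 212 ± 189 at 0 h (SD, n = 3 each). The log2 change was -6.68 (SE 1.67, adjusted p = 0.024 in edgeR), and it was -7.18 without 0 h replicate 2 (adjusted p = 0.014). The call was lost without 0 h replicate 3, where the log2 change was -5.79 (adjusted p = 0.072). It was likewise lost when 6 h replicate 1, 2 or 3 was left out, with log2 changes of -6.78, -6.32 and -6.98 (adjusted p = 0.074, 0.087 and 0.071). Over its 16 alternatives the log2 change ran from -7.19 to -5.26 and the adjusted p from 3.8e-05 to 0.087. At 2 h replicates 1, 2 and 3 stood at 0.852, 38.0 and 0.902 CPM, of which replicate 2 was at the level of 0 h replicate 2. The mean was 12.0 CPM ± 18.1 after 12 h, 64.8 ± 39.6 after 24 h and 67.5 ± 22.7 after 48 h. In FPKM it stood at 1.29, 0.490 and 1.52 at 6 h, against 114, 17.8 and 224 at 0 h.

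TRINITY_DN16620_c0_g1_i2_3, of 2088 nucleotides, lost the most CPM. It stood at 87.5, 120.2 and 117 CPM in the 6 h libraries, against 739, 253 and 1824 CPM in the 0 h libraries. Again 0 h replicate 2 was the lowest of its group, and it still lay above every 6 h library. Its mean was 108 CPM ± 18.1 at 6 h and 939 ± 804 at 0 h (SD, n = 3 each). The log2 change was -3.12 (SE 0.84, adjusted p = 0.034 in edgeR), and it was -3.55 without 0 h replicate 2 (adjusted p = 0.014). The call was lost under 7 of its 16 alternatives, with log2 changes from -3.56 to -2.20 and adjusted p from 0.00079 to 0.16 over all of them. Those were the fit with the replicate number as a block, the fit of only 6 libraries, and the loss of any library other than 0 h replicate 2. The smallest change, -2.20, was that without 0 h replicate 3. The mean was 181 CPM ± 82.1 after 2 h and 178 ± 182 after 12 h, then 629 ± 543 after 24 h and 727 ± 238 after 48 h. In FPKM it stood at 53.1, 70.8 and 68.6 at 6 h, against 474, 161 and 1118 at 0 h.

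**Figure D2:**
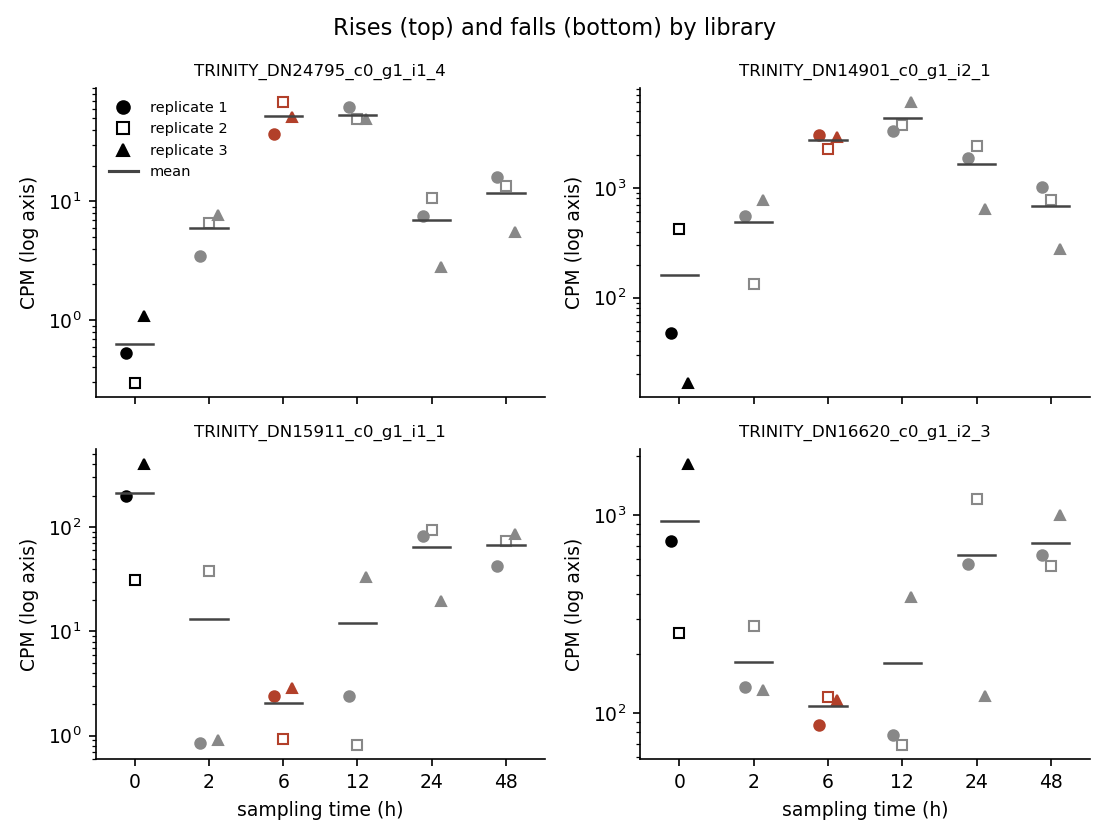
Each panel is 1 named feature, with sampling time on the x axis (h) and CPM on the y axis (log scale). Symbols are replicates 1 to 3 and bars are means of 3. Libraries at 6 h (red) stand above those at 0 h (black) in both top panels and below them in both bottom panels, and 0 h replicate 2 lies nearer to 6 h in 3 of the 4.

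The direction of a call went with the last digit of the feature ID. Each ID ends in a digit from 1 to 9, and neither the labels nor the files say what it stands for. Among features with a mean of at least 1 CPM, each digit was most frequent among the features that peaked in 1 pair of libraries. Digit 1 made up 35.4% of the features that peaked in 0 h replicate 1 and 33.5% of those in 0 h replicate 2, beside 13.3% of all such features. Digit 2 made up 36.2% and 31.5% in 6 h replicates 1 and 2, beside 12.1%. Digit 3 made up 26.4% in 6 h replicate 3 and 30.2% in 0 h replicate 3, beside 10.4%. For digits 4 to 9 the pairs were libraries of the other 4 times.

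Rises and falls were spread over the digits unequally. Of 5553 tested features ending in 2, 442 rose (7.96%) and 24 fell (0.432%). Of 6099 ending in 1, 50 rose (0.820%) and 213 fell (3.49%). Of 5209 ending in 3, 137 rose (2.63%) and 152 fell (2.92%). The median log2 change over all tested features was 0.53 for digit 2, -0.53 for digit 1 and -0.34 for digit 3. Among the 28361 features with digits 4 to 9, whose pairs hold no 6 h or 0 h library, 1483 rose (5.23%) and 393 fell (1.39%), with a median of 0.10. These features are not neutral between the groups compared. Each library of the other times, apart from 2 h replicate 2, correlated more closely on average with the 6 h than with the 0 h libraries. The means were 0.913 and 0.844 for 12 h replicate 1, against 0.880 and 0.915 for 2 h replicate 2. Rises were 93.4% of calls for digit 4, 90.7% for digit 5, 84.6% for digit 6, 75.6% for digit 7, 59.2% for digit 8 and 51.6% for digit 9. Rises thus outnumbered falls for each digit other than 1 and 3. With features of digits 4 to 9 alone scaled and tested, an alternative chosen after the data were seen, 1419 rose and 481 fell. Without 0 h replicate 2, 473 rose and 39 fell for digit 2, 93 and 307 for digit 1, 152 and 370 for digit 3, and 2108 and 595 for digits 4 to 9. The part of the digit in the balance of rises and falls was not tested beyond these counts.

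**Figure D3:**
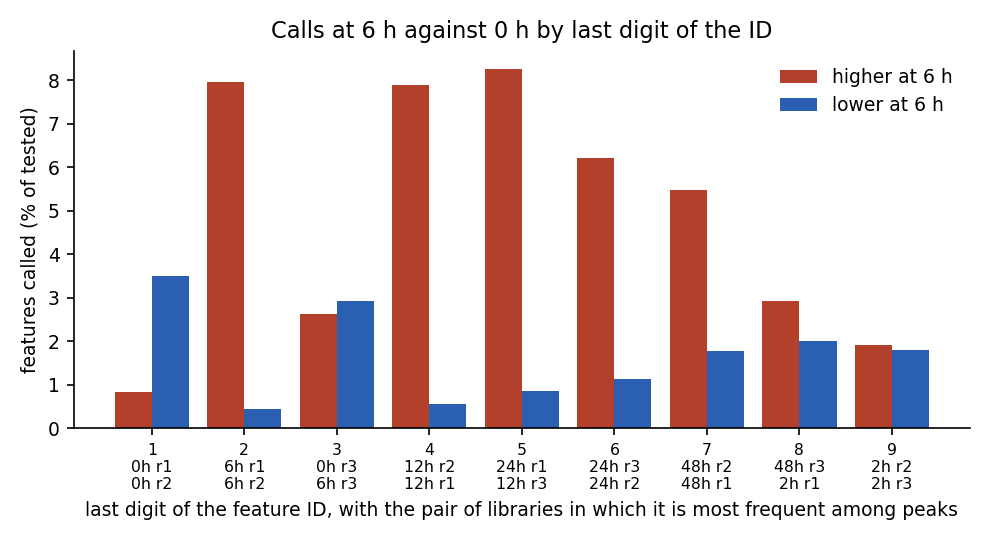
Bars give the share of tested features called higher (red) or lower (blue) at 6 h than at 0 h, in percent, for each last digit of the feature ID on the x axis. Under each digit stands the pair of libraries (r for replicate) in which that digit was most frequent among peaking features. Digits 1 and 3 are the ones with a larger share of falls than of rises.

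Abundant features were called more often than scarce ones. Features were sorted by mean CPM over all 18 libraries, which include the 6 compared. Over 100 CPM, 186 of 2116 features rose (8.79%) and 67 fell (3.17%). Between 10 and 100 CPM, 842 of 12330 rose (6.83%) and 346 fell (2.81%). Between 1 and 10 CPM, 805 of 16630 rose (4.84%) and 321 fell (1.93%). Under 1 CPM, 279 of 14146 rose (1.97%) and 48 fell (0.339%), and fewer counts there leave smaller changes undetectable. Among rises the median log2 change was 1.77 over 100 CPM, 1.70 between 10 and 100 CPM, 2.60 between 1 and 10 CPM and 3.50 under 1 CPM, features without counts set to the floor. Rises made up 70.9% to 73.5% of calls in the upper 3 classes and 85.3% under 1 CPM. Without 0 h replicate 2 they made up 68.1% to 74.0% in the upper 3 classes and 60.9% under 1 CPM. That library also moved the class over 100 CPM, where 319 rose (15.1%) and 112 fell (5.29%) without it. Under 1 CPM 288 rose (2.04%) and 185 fell (1.31%) without it, and between 1 and 10 CPM 500 fell (3.01%). With the level taken from the 6 libraries compared, 3.03% of features under 1 CPM rose.

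Over all levels together, longer features were also called more often. Of 12476 features of at least 2000 nucleotides, 882 rose (7.07%) and 302 fell (2.42%). Of 10257 features from 1000 to under 2000 nucleotides, 538 rose (5.25%) and 299 fell (2.92%). From 500 to under 1000 nucleotides, 426 of 10127 rose (4.21%) and 132 fell (1.30%). Under 500 nucleotides, 266 of 12362 rose (2.15%) and 49 fell (0.396%). The shares that fell without 0 h replicate 2 were 3.50%, 4.86%, 2.80% and 0.736% from the longest class to the shortest, and those that rose were 9.79%, 6.98%, 5.31% and 2.83%. The median length was 1643 nucleotides among rises and 1731 among falls, beside 1009 among all features tested. Length went with level, since the median level was 22.0 CPM in the longest class and 0.645 CPM in the shortest. Within 10 to 100 CPM, 7.37% of features of at least 2000 nucleotides rose, 5.79% of those from 1000 to under 2000 and 6.34% of those from 500 to under 1000. In the shortest class at that level 7 of 62 features rose (11.3%). Within 1 to 10 CPM the shares that rose were 5.31%, 5.21% and 5.30% in these 3 classes and 3.12% under 500 nucleotides. Under 1 CPM they were 0.943%, 1.91%, 2.51% and 1.73% from the longest class to the shortest. Within these levels the share of rises thus did not follow length in order. Over 100 CPM it did, at 9.73%, 6.61% and 4.71% (4 of 85 features) from the longest class down to 500 nucleotides. The shortest class at that level held 1 feature, which was not called. Without 0 h replicate 2 the shares over 100 CPM were 16.3%, 12.4% and 8.24%. Within 10 to 100 CPM they were then 9.83%, 8.29%, 9.15% and 21.0% from the longest class to the shortest.

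The balance of directions also varied with length. Rises were 74.5% of calls at 2000 nucleotides or more, 64.3% from 1000 to under 2000, 76.3% from 500 to under 1000 and 84.4% under 500. Without 0 h replicate 2 these shares were 73.7%, 58.9%, 65.5% and 79.4%, so falls were relatively most frequent from 1000 to under 2000 nucleotides in both fits. Among features with digits 4 to 9 the shares were 78.7%, 72.8%, 82.8% and 87.1%. The shares are descriptions of features and were not compared by a test.

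**Figure D4:**
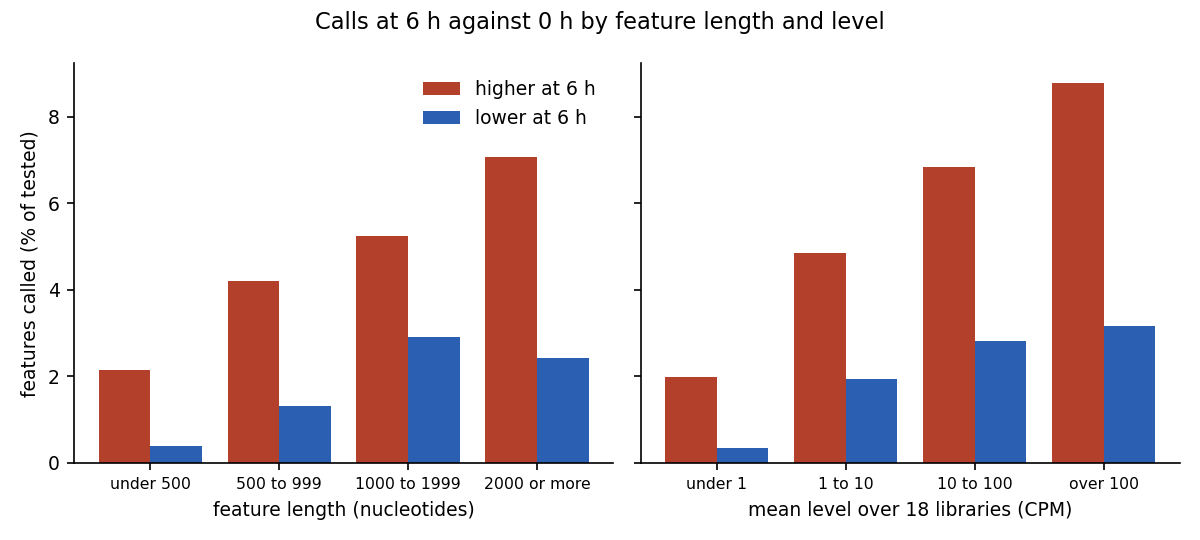
Bars give the share of tested features called higher (red) or lower (blue) at 6 h than at 0 h, in percent, by feature length in nucleotides (left panel) and by mean CPM over 18 libraries (right panel). The share of rises grows from 2.15% to 7.07% with length and from 1.97% to 8.79% with level.

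How many features were switched on or off depended on the level required. A feature was taken as off with at most 3 counts over the 3 libraries of a group, and as on with at least 1 CPM in each library. On at 6 h and off at 0 h were 12 features, and off at 6 h and on at 0 h were 2. All 14 were among the calls, but the states were set on the same values as the calls, so this adds no evidence. Over all features tested, 4.67% were called higher and 1.73% lower. The 12 were 315 to 1389 nucleotides long, with a median of 573. Their mean level at 6 h ran from 1.17 to 8.81 CPM, and 5 of them had no count at 0 h. Most were also found later, since a mean of 1 CPM or more was reached by 10 of the 12 after 12 h, by 11 after 24 h and by 6 after 48 h. After 2 h it was reached by 1. By last digit, 1 ended in 2, 1 in 3 and 10 in 4 to 9. At a level of 10 CPM in each library no feature was on in 1 group and off in the other. At 0.1 CPM in each library, 480 were on at 6 h and off at 0 h, of which 240 were called, and 171 were off at 6 h and on at 0 h, of which 27 were called. Here too the states and the calls share their values, and features that were not tested are counted in. Their calls are therefore not read against the 4.67% and 1.73% of all features tested. The counts at 1 CPM moved with single libraries. Those on at 6 h numbered 63 without 6 h replicate 1, 25 without 6 h replicate 3, and 32, 57 and 25 with 0 h replicates 1, 2 and 3 left out in turn.

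Both features that were off at 6 h were singled out after their values were seen. One, of 1007 nucleotides, had 0, 0 and 0.123 CPM in the 6 h libraries, against 7.72, 5.44 and 20.1 CPM in the 0 h libraries. The other, of 495 nucleotides, had 0, 0.0440 and 0 CPM at 6 h, against 1.23, 1.08 and 2.81 CPM at 0 h. Neither was off at 2 h, where their means were 4.50 and 6.65 CPM. Of this kind there were 29 with 0 h replicate 2 left out and 4 for 0 h replicate 3. The same step for 6 h replicates 1, 2 and 3 gave 7, 12 and 5.

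Some features at low level had counts in 1 group alone. No count at 0 h and at least 1 count in each 6 h library was found for 370 features, of which 182 were called. Their median mean level at 6 h was 0.316 CPM. No count at 6 h and at least 1 in each 0 h library was found for 223, of which 16 were called, with a median of 0.252 CPM at 0 h. Such features could pass the filter only through libraries where they were present, so their calls are not read against the 4.67% and 1.73% of all features tested. The order of the 370 and 223 was reversed without 6 h replicate 2, where they were 434 and 694. It was kept with any other single library left out, though the numbers moved. They were 744 and 558 without 0 h replicate 2, and without 6 h replicate 1 they were 660 and 352. With 0 h replicate 1 left out they were 603 and 287, with 0 h replicate 3 left out 602 and 242, and with 6 h replicate 3 left out 450 and 397. A group without counts still allows a level of up to 3 counts over its libraries, by counting error alone.

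The number of features detected did not follow the calls. At least 1 CPM was reached by 29818, 29893 and 29262 features in the 6 h libraries, against 29041, 29774 and 30155 in the 0 h libraries. The groups overlapped, with means of 29658 ± 345 at 6 h and 29657 ± 566 at 0 h (SD, n = 3 each; exact two-sided permutation p = 1). The 100 most abundant features of each library held 13.5%, 13.1% and 12.7% of counts at 6 h, against 11.8%, 11.8% and 12.8% at 0 h. Here 6 h replicate 3 was just below the highest 0 h library, and the means were 13.1% ± 0.413 and 12.2% ± 0.603 (SD, n = 3 each; exact two-sided permutation p = 0.2). The mean feature length weighted by counts was 2730 nucleotides ± 72.6 at 6 h and 2663 ± 62.2 at 0 h (SD, n = 3 each; exact two-sided permutation p = 0.3). An exact permutation test of 3 libraries against 3 cannot go below p = 0.1.

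The features called at 6 h had medians on the same side of 0 at 2 h, and near the 6 h medians at 12 h. All comparisons with 0 h share the 0 h libraries, so the values are set side by side and carry no test. For the 2112 rises the median log2 change against 0 h was 1.08 after 2 h, 2.22 after 6 h and 2.41 after 12 h, then 1.91 after 24 h and 1.87 after 48 h. For the 782 falls it was -0.79 after 2 h, -1.99 after 6 h and -1.92 after 12 h, then -1.34 after 24 h and -1.01 after 48 h. Over all features tested the medians lay between -0.10 and 0.03. As differences of mean log2 CPM, the medians after 6 h were 2.09 for the rises and -2.04 for the falls without 0 h replicate 2, against 2.02 and -1.84 with it. After 2 h they were 1.12 and -0.96 without it, against 1.01 and -0.77 with it. At 48 h 153 of the rises (7.24%) had a log2 change of -1 or less, beside 28.5% of all features tested. Of the falls, 79 (10.1%) had one of 1 or more at 48 h, beside 24.8% of all features tested.

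In shares of all counts the rises peaked in the mean at 12 h. Their share was 3.30% ± 0.712 at the start, 5.47% ± 0.698 after 2 h and 11.5% ± 1.60 after 6 h. It was 13.6% ± 1.08 after 12 h, 9.79% ± 0.905 after 24 h and 8.90% ± 1.33 after 48 h (SD, n = 3 each). The share of the falls was 5.08% ± 1.42 at the start, 2.91% ± 0.659 after 2 h and 1.26% ± 0.126 after 6 h. It was 1.37% ± 0.162 after 12 h, 2.37% ± 0.218 after 24 h and 3.11% ± 0.554 after 48 h (SD, n = 3 each). At 2 h the library labelled replicate 2 had the lowest share of rises (4.70%) and the highest share of falls (3.67%) of its group. In both it was the 2 h library nearest to 0 h, as 0 h replicate 2 was the 0 h library nearest to 2 h. The 6 h and 12 h libraries overlapped in both lists, with 10.4% to 13.3% at 6 h and 12.4% to 14.6% at 12 h for the rises.

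**Figure D5:**
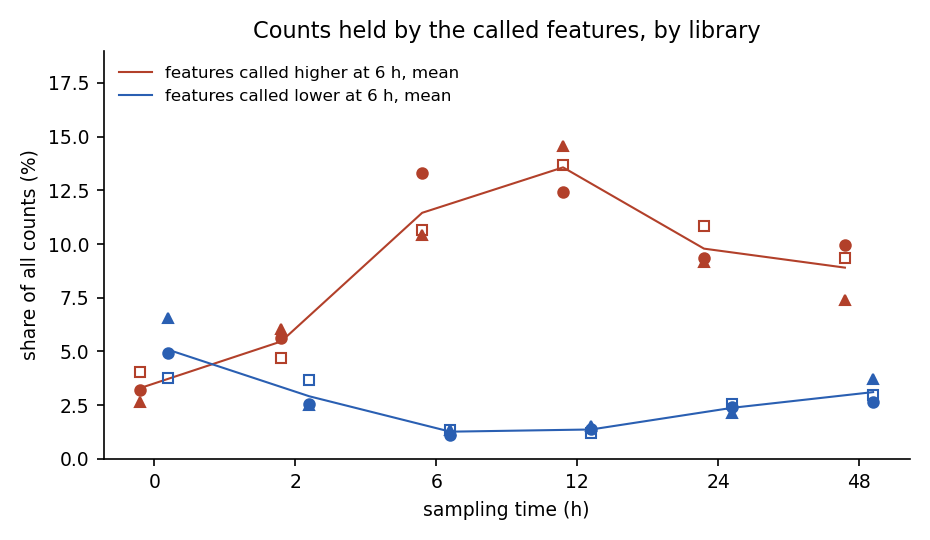
Points are single libraries (circle, open square and triangle for replicates 1, 2 and 3) and lines join means of 3, with sampling time on the x axis (h) and the share of all counts on the y axis (%). The 2112 rises (red) hold 11.5% of counts at 6 h and 3.30% at 0 h, and the 782 falls (blue) hold 1.26% and 5.08%.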

How the data were processed

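The authors deposited estimated counts and FPKM values for the same features, in 1 column for each library, and 0 such columns were left unused. Per the file headers, IDs have the form that the assembler Trinity writes. For aligner and counting tool, the sources used here give none. Of the deposited estimated counts, 89.6% were not whole, and they were rounded first. Feature length came from estimated count over FPKM, which lay within 0.1 nucleotides of an integer in 99.99% of cases (301 to 15981 nucleotides).

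Features were filtered with filterByExpr and scaled by TMM, and edgeR 4.0.16 under R 4.3.3 (glmQLFit and glmQLFTest) fitted 1 model of the 6 times to the 18 libraries together. The common dispersion was 0.244, and dividing the absolute log2 change by the root of F gave its SE. The log2 CPM used a prior count of 2. Library values were compared by exact permutation with scipy 1.17.1. The fit was also run on simulated counts with known changes. Alternatives used DESeq2 1.42.0, limma 3.58.1 on FPKM of at least 1 in 3 libraries, other filters, scalings and thresholds, the replicate number as a block, and each library left out. Within the 6 h group and within the 0 h group no library was the same data deposited again. The chi-square over its degrees of freedom was at least 25.1 in each of these pairs. That does not tell separate plants from separate preparations. Pairs across times and pairs within the other times were not checked in this way.

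The samples, thresholds and lists were chosen with earlier results of these data known. Named features were the largest log2 change and the largest CPM difference in each direction among those past the criteria in the text. A planned test on counts summed over a shared Trinity gene ID, and a planned test of shifts between its features, were not made. Features that shared such an ID always differed in the last digit. Their median correlation was no higher than that of pairs of any features. The shared ID was therefore not taken to mark a gene. Annotation columns were not used. Floors cover counting error only.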

Additional observations from a re-analysis of the deposited data

How the results depend on the processing

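Rises outnumbered falls under each of the 21 alternatives apart from the count of features ending in 3. Total calls, rises and falls numbered 1604, 1217 and 387 at a log2 change of at least 2, 374, 267 and 107 with only the 6 libraries compared, and 5318, 3383 and 1935 with the DESeq2 test. They numbered 5358, 3371 and 1987 with 0 h replicate 2 and 2 h replicate 2 both left out. Among features with at least 10 CPM in 3 libraries 1393 rose. Chosen after the data were seen, the refit of features ending in 4 to 9 gave 1900 calls with 481 falls, and features ending in 3 gave 289 calls, 137 of them rises and 152 falls. Leaving out each library gave 1204 to 4208 calls, 910 to 2835 rises and 294 to 1373 falls. With the replicate number as a block 2171 features were called. Deviations from the group means of same-numbered libraries correlated at 0.150, 0.0546 and -0.0199, so the numbers were not taken to pair the libraries. The cause of these changes was not tested.

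The difference in detected features, 1 at 1 CPM, was -587 at 0.1 CPM, -237 after thinning each library to 17934038 counts, -483 on unscaled totals, 246 at 10 CPM, and -307 to 250.2 with each library left out. Features on at 6 h and off at 0 h numbered 5 with no count allowed and 0 at 10 CPM, and 16 to 63 with each library left out. Those off at 6 h and on at 0 h numbered 0 under both settings and 3 to 29 with each library left out.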

Other observations

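Features that shared a Trinity ID up to the gene number varied together across the 18 libraries no more than pairs of any features did. Over 26670 pairs sharing such a stem the median Pearson correlation of log2 CPM was -0.00763. Over pairs of any features it was -0.00517. Over 30204 different ID stems, 0 features shared both the stem and the last digit. A shared stem was therefore not taken to mark a gene. How transcripts of the same gene vary together was not tested.

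The 8323 features left out by the filter on low counts had a median length of 392 nucleotides, beside 1009 among those tested. The comparison says nothing about these features, so it covers short and scarce transcripts only in part.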
